A study of Homo sapiens with 6 samples.

Results

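PTPRO and 9 other receptor-type protein tyrosine phosphatases, PTPRZ1, PTPRD, PTPRS, PTPRF, PTPRG, PTPRK, PTPRM, PTPRN and PTPRN2, were followed in human forebrain organoids with and without exposure to amyloid-β. They are 10 of the 18056 genes in the table, found by symbol, and PTPRO was picked because it had among the smallest p-values of genes lower after exposure (rank 2 of the 6818 genes that were lower). Its difference between groups is therefore given as a description, with no test. All 10 genes had enough reads to be tested among 13842. The organoids were grown by a dorsal forebrain protocol from the established human iPSC line DYR0100 (induced pluripotent stem cells), whose genotype is given as WT. Vehicle was given to 3 samples and Aβ42, the aggregation-prone amyloid-β peptide, at 5 µM to 3 samples, for 6 days, and all were labelled as 1 batch of independent biological replicates. All samples come from this 1 line, and the age of the organoids at exposure is not given in the sources used here.

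Receptor-type tyrosine phosphatases span the cell membrane, with adhesion-like domains outside the cell and phosphatase domains inside it that remove phosphate from tyrosine residues, the reaction opposite to that of tyrosine kinases. They are grouped by their outer domains. PTPRO belongs to the R3 subgroup, PTPRZ1 and PTPRG to R5, PTPRD, PTPRS and PTPRF to R2A (the LAR family), PTPRK and PTPRM to R2B, and PTPRN and PTPRN2 to R8. In developing brain they are known for roles in axon growth, in synapse formation and, for PTPRZ1, in radial glia. PTPRN and PTPRN2 sit in the membrane of dense-core vesicles and are known to lack classical phosphatase activity.

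The coding sequence of the catalytic loop is shown because it is what makes the 10 genes a family and what sets PTPRN and PTPRN2 apart within it. Each line gives 30 bases of the coding exons, 5′ to 3′ on the coding strand, from GENCODE release 29 (GRCh38), with the fourth codon in capitals.
PTPRO: cactgcagtGCTggcgtgggacggacagga
PTPRZ1: cactgcagtGCTggagttggaagaacaggc
PTPRD: cactgcagtGCGggagttggccggactggt
PTPRS: cactgcagtGCCggtgtgggccgcacaggc
PTPRF: cactgcagcGCGggcgtgggccgcaccggc
PTPRG: cactgcagtGCTggtgtgggcagaacaggc
PTPRK: cattgcagtGCTggtgctggacgaactggc
PTPRM: cactgcagtGCTggtgcagggaggactggc
PTPRN: cactgcagtGATggtgcggggaggaccggc
PTPRN2: cattgcagtGACggtgcaggccggagcggc
The capital codon is GCT, GCG or GCC in the other receptors, GAT in PTPRN and GAC in PTPRN2. In all 10 transcripts an intron interrupts the stretch after its first 8 bases, so the loop is joined by splicing in every member. In PTPRO it runs over exons 24 and 25 of 27, spanning chr12:15587044-15589476 on the plus strand. In PTPRN2 it runs over exons 19 and 20 of 22, spanning chr7:157568945-157571447 on the minus strand. PTPRO shares 25 of 30 bases with PTPRZ1, 24 with PTPRD and 20 with PTPRN2. As whole genes, PTPRO lies at chr12:15322508-15598331, PTPRN2 at chr7:157539056-158587823, PTPRF at chr1:43522051-43623666 and PTPRN at chr2:219289623-219309401 (RefSeq, GRCh38.p14).

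Libraries held between 16465390 and 16742958 estimated counts. Aβ42 replicate 2 stood apart from its group, with a mean correlation of log2 CPM (read counts scaled to a common library size) of 0.9898 with the other Aβ42 libraries and 0.9931 with the vehicle libraries, so results are also given without it. It was the Aβ42 library nearest to the vehicle mean in 5 of the 10 members. Because it was left out for its likeness to vehicle, the fit without it favours a difference between groups. Passing in that fit is therefore no independent support. In edgeR's quasi-likelihood test with Benjamini-Hochberg adjustment, 0 of the 13842 genes (0%) came under the threshold of 0.05. An unadjusted p-value under 0.05 was reached by 3302 genes, or 23.9%. A blocked fit, which compares libraries of the same replicate number, called 1962 genes (14.2%, of which 7.12% higher and 7.05% lower), and without Aβ42 replicate 2, 3224 genes passed (23.1% of those tested in that fit, of which 11.5% higher and 11.6% lower). The labels name no pairing, so every call with the block hangs on an assumption taken from the data.

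**Figure D1:**
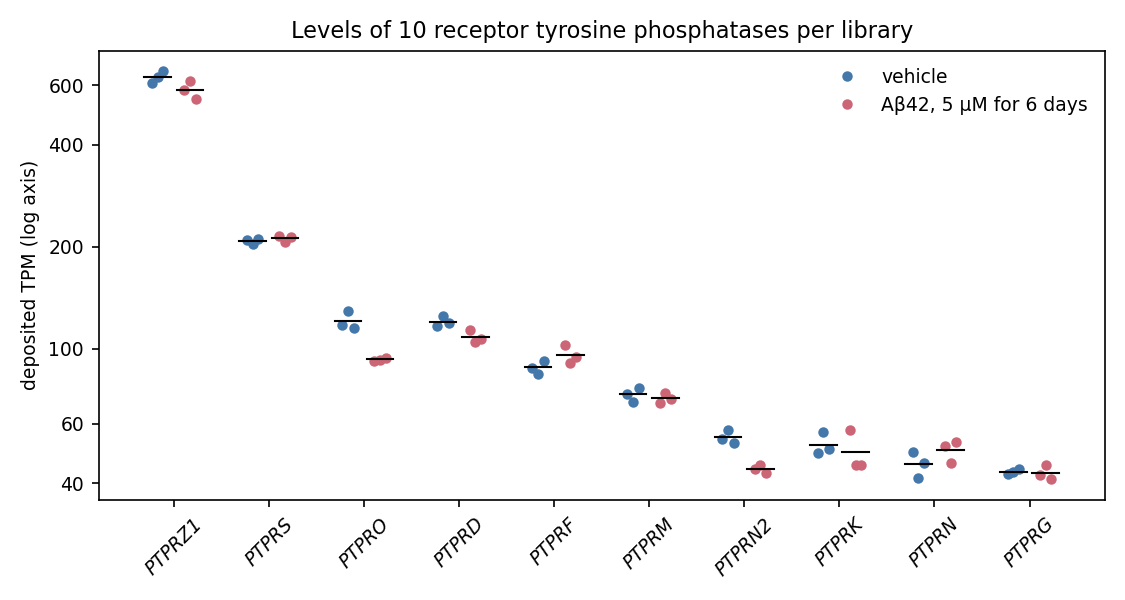
Deposited TPM (reads corrected for transcript length and library size) of the 10 receptors in each of 6 libraries, on a log axis, with points for libraries and a bar for the mean of 3. PTPRZ1 stands above all others, and PTPRO moves from the level of PTPRD to that of PTPRF.

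On the length-corrected TPM scale, the only one on which genes can be set against each other, PTPRZ1 was the most abundant member in vehicle organoids at 635.3 ± 25.8 TPM (mean ± SD, n = 3). PTPRS followed at 208.0 ± 3.64 TPM. PTPRO, at 120.8 ± 7.42 TPM, and PTPRD, at 120.3 ± 4.06 TPM, overlapped and could not be ordered. PTPRF came next at 88.2 ± 4.0 TPM and PTPRM at 73.3 ± 3.39 TPM, each clear of its neighbours. The 4 lowest followed closely, each overlapping the next: PTPRN2 at 54.7 ± 2.44, PTPRK at 52.1 ± 4.04, PTPRN at 45.7 ± 4.05 and PTPRG at 43.3 ± 0.69 TPM. With Aβ42, PTPRO stood at 92.9 ± 1.07 TPM, below PTPRD (108.3 ± 4.74) in every library and overlapping PTPRF (95.9 ± 5.83). PTPRN2, at 44.1 ± 1.10 TPM, changed places with PTPRN, at 50.2 ± 3.74 TPM. PTPRZ1 made up 44.1% ± 0.92 of the summed TPM of the 10 members in vehicle and 43.2% ± 1.78 with Aβ42, while the share of PTPRO was 8.38% ± 0.54 and 6.89% ± 0.26.

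PTPRO, known as GLEPP1 in the kidney glomerulus and as a receptor in neurons that acts on Eph receptors, was lower in every Aβ42 library than in any vehicle library. The vehicle libraries, in the order of their replicate numbers, held 271.7, 292.1 and 264.4 CPM, and the Aβ42 libraries 218.2, 217.4 and 229.1 CPM. The lowest vehicle library lay above the highest Aβ42 library, and the Aβ42 values were close together. The log2 fold change was -0.32 ± 0.05 (SE), a level 19.7% lower. Without Aβ42 replicate 2 it was -0.30, a description from the same libraries that chose the gene. Each library held 3580 to 4804 counts of PTPRO, all whole numbers, for which counting error at the lowest is 1.67%. Within a library, PTPRO was at 1.01, 1.04 and 0.97 times the TPM of PTPRD in vehicle and at 0.81, 0.88 and 0.88 times with Aβ42. Against PTPRF it stood at 1.34, 1.53 and 1.25 times in vehicle, but at 0.902, 1.02 and 0.997 times with Aβ42. Both ratios were lower in every Aβ42 library than in any vehicle library. They carry the difference that chose PTPRO, and PTPRF was itself higher with Aβ42, so this separation is no independent support.

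**Figure D2:**
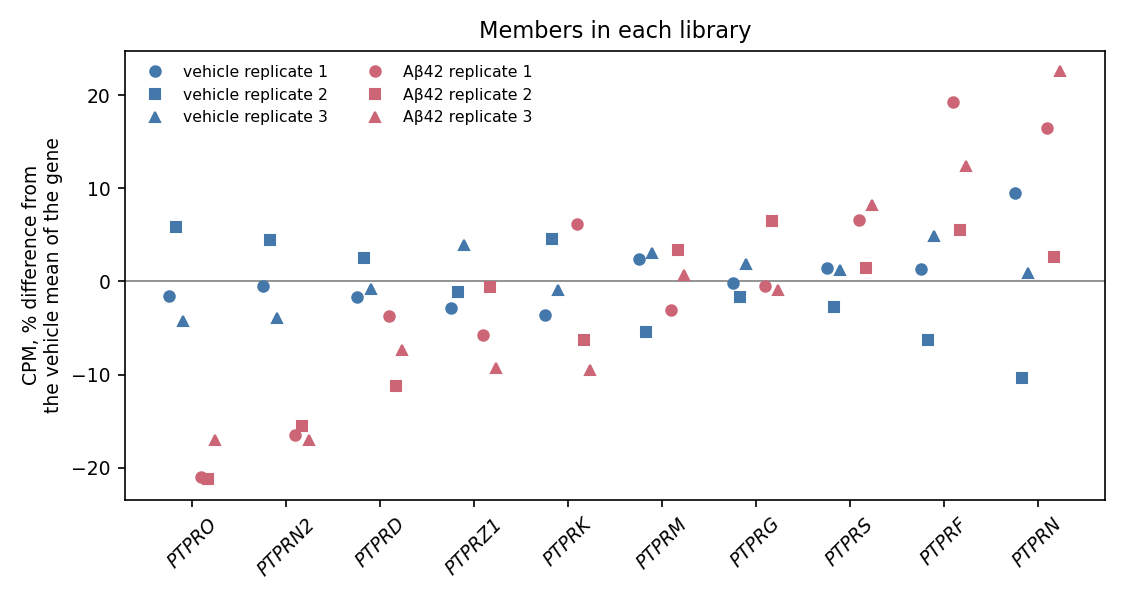
CPM of each member in each library as the percent difference from the gene's vehicle mean, with vehicle in blue, Aβ42 in red and the replicate number by symbol. PTPRO and PTPRN2 sit apart from vehicle in all 3 Aβ42 libraries, PTPRF and PTPRS lie slightly above, and PTPRK, PTPRM and PTPRG mix.

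Of the 9 members other than PTPRO, 4 were lower and 5 higher with Aβ42, and 0 passed over all genes by edgeR's quasi-likelihood test. An unadjusted p-value under 0.05 was reached by 3 (PTPRN2, PTPRD and PTPRF), or 33.3% beside 23.9% of all genes. The groups did not overlap in 4 (PTPRN2, PTPRD, PTPRF and PTPRS), beside 27% of all genes. With the replicate block 3 passed (PTPRN2, PTPRF and PTPRN), beside 14.2% of all genes. With 9 genes these shares are counts of 3 or 4 and set nothing apart from the background. The members were also chosen with results of these data known.

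PTPRN2 and PTPRN, the vesicle receptors of subgroup R8, lay on opposite sides of 0. PTPRN2, also called phogrin, was at 104.0, 109.1 and 100.4 CPM in vehicle, against 87.3, 88.2 and 86.7 CPM with Aβ42. The Aβ42 libraries differed by under 2 CPM and all lay below vehicle. The log2 fold change was -0.26 ± 0.05 (SE), with an edgeR adjusted p-value of 0.0684. It passed with the replicate block, at 0.00449, and without Aβ42 replicate 2, at 0.00378. When both libraries of a replicate number were left out of the blocked fit, the edgeR adjusted p-value was 0.0809 without number 1, 0.0288 without number 2 and 0.0287 without number 3. Its estimated counts were whole in 4 of 6 libraries. The others were Aβ42 replicate 1 (1432.32) and Aβ42 replicate 2 (1485.9), so the fractions fell only in the Aβ42 group. Where they come from is not given in the sources used here, and their bearing on the difference was not tested.

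PTPRN, also called IA-2, is a major autoantigen of type 1 diabetes and a regulator of vesicle number. It was at 66.7, 54.5 and 61.4 CPM in vehicle and at 70.9, 62.5 and 74.6 CPM with Aβ42. Aβ42 replicate 2 lay within the vehicle range, and in each replicate number the Aβ42 library was the higher. The log2 fold change was 0.19 ± 0.09 (SE), with an edgeR adjusted p-value of 0.213, of 0.0465 with the replicate block and of 0.031 without Aβ42 replicate 2. In the blocked fits without number 1, 2 or 3 it was 0.111, 0.116 and 0.361, so that call needed all 3 numbers. Within a library the TPM of PTPRN2 stood at 1.09, 1.38 and 1.15 times that of PTPRN in vehicle. With Aβ42 it stood at 0.85, 0.98 and 0.81 times. The ratio was above 1 in every vehicle library and below it in every Aβ42 library. It combines the opposite differences already given for both genes and is no separate support.

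Genes of the dense-core vesicle, the organelle that holds both R8 receptors, included 11 that were lower and 6 that were higher of 17 tested, with a median log2 fold change of -0.08 beside 0.00322 over all genes. In the fit of all 6 libraries without a block 0 passed, 5 lower and 2 higher had an unadjusted p-value under 0.05, and 3 lower and 1 higher passed with the block. Without Aβ42 replicate 2, 3 lower and 2 higher passed, and the split was 9 lower and 8 higher. Over all genes the shares were 23.9% unadjusted, 14.2% with the block and 23.1% without that library. SCG3, a granin that sorts cargo into the vesicle, averaged 175.5 ± 3.67 CPM in the vehicle libraries against 152.2 ± 3.53 CPM in the Aβ42 libraries, a log2 fold change of -0.21 ± 0.04 (edgeR adjusted p-value 0.0697, and 0.0115 with the block). PCSK1, a prohormone convertase, was scarce at 1.56 ± 0.47 and 0.60 ± 0.23 CPM (log2 fold change -1.36 ± 0.36, edgeR adjusted p-value 0.0832, and 0.00835 with the block). In both genes the groups did not overlap, but they were named for having the smallest p-values of the list. Of the 17 genes, 3 lower and 1 higher had groups without overlap, beside 13.4% and 13.6% of all genes. The higher gene was SNAP25 (log2 fold change 0.15). STX1A was the gene that passed as higher with the block (log2 fold change 0.31 and edgeR adjusted p-value 0.0228, both in that fit), and its groups overlapped.

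**Figure D3:**
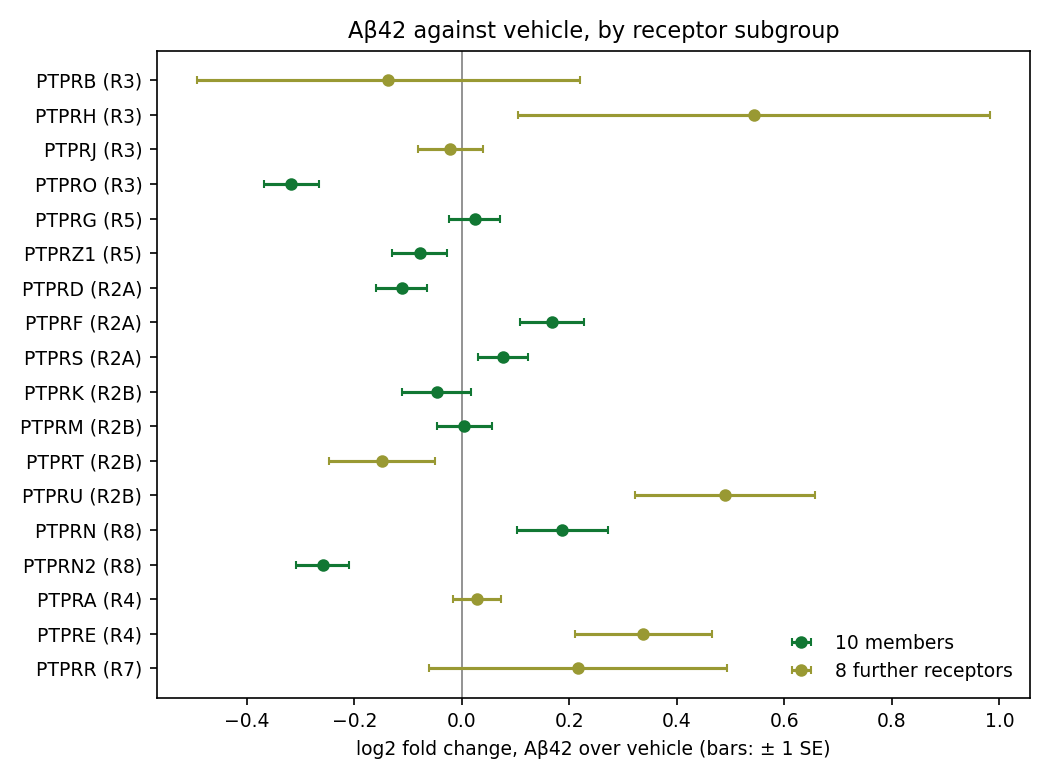
Log2 fold change of Aβ42 over vehicle with ± 1 SE for the 10 members and 8 further receptors, ordered by subgroup. Members of a subgroup differ in direction: PTPRN2 lies at -0.26 and PTPRN at 0.19, and PTPRD at -0.11 and PTPRF at 0.17.

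The LAR family of subgroup R2A also held both directions. These receptors bind proteoglycans on growing axons and join presynaptic terminals to postsynaptic adhesion proteins. PTPRD was at 410.2, 427.3 and 413.4 CPM in vehicle and at 401.6, 370.2 and 386.1 CPM with Aβ42. The groups did not overlap, but the gap between the lowest vehicle and the highest Aβ42 library was narrow, and Aβ42 replicate 2 was the lowest. The log2 fold change was -0.11 ± 0.05 (SE), with an edgeR adjusted p-value of 0.189, of 0.151 with the block and of 0.213 without Aβ42 replicate 2. PTPRF, the receptor LAR itself, was at 253.6, 234.7 and 262.6 CPM in vehicle and at 298.4, 264.0 and 281.3 CPM with Aβ42. Every Aβ42 library lay above vehicle, the lowest by a small margin.

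For PTPRF the log2 fold change was 0.17 ± 0.06 (SE), with an edgeR adjusted p-value of 0.131. It passed with the replicate block, at 0.0329, and without Aβ42 replicate 2, at 0.0152, where the log2 fold change was 0.21. In blocked fits without number 1, 2 or 3 the adjusted p-value was 0.22, 0.0956 and 0.083, so no pair of replicate numbers carried the call alone. PTPRS, the LAR relative that binds chondroitin and heparan sulphate chains, was at 505.2, 484.5 and 504.0 CPM in vehicle and at 530.6, 505.3 and 538.7 CPM with Aβ42. Its groups were barely separated, and the log2 fold change was 0.08 ± 0.05 (edgeR adjusted p-value 0.339, and 0.305 with the block). Within a library PTPRF stood at 0.75, 0.68 and 0.78 times the TPM of PTPRD in vehicle, but at 0.90, 0.87 and 0.89 times with Aβ42. This ratio likewise combines differences already given for both genes and is no separate support.

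Proteoglycans that bind PTPRS and PTPRF gave 10 higher and 8 lower of 18 tested, with a median log2 fold change of 0.07. In the unblocked fit of all 6 libraries 0 passed, 7 higher and 2 lower had an unadjusted p-value under 0.05, and 6 higher and 3 lower passed with the block. Leaving out Aβ42 replicate 2, 4 higher and 2 lower passed and the median was 0.02. Beside these counts stand 23.9% of all genes unadjusted, 14.2% with the block and 23.1% without that library. NCAN, the chondroitin sulphate proteoglycan neurocan, averaged 813.8 ± 14.3 CPM in the vehicle libraries against 705.8 ± 18.5 CPM in the Aβ42 libraries (log2 fold change -0.21 ± 0.04, edgeR adjusted p-value 0.0697, and 0.0085 with the block). GPC2, a heparan sulphate glypican of immature neurons, was at 90.9 ± 1.60 and 78.1 ± 4.14 CPM (-0.22 ± 0.05, 0.0734, and 0.0182 with the block). The 6 that passed as higher with the block were GPC6, HSPG2, SDC1, GPC3, AGRN and GPC4, heparan sulphate proteoglycans of the cell surface and basement membrane. They and SDC2 were picked out by that count after their values were seen. SDC2, a syndecan, was the remaining gene that passed as lower with the block.

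Postsynaptic adhesion partners of the LAR family were 10 higher and 3 lower of 13 tested, with a median of 0.13. Of these, 3 higher and 2 lower had an unadjusted p-value under 0.05, and 1 passed with the block. Leaving out Aβ42 replicate 2, 2 higher and 1 lower passed and the median was 0.19. LRRC4B (NGL-3) was at 107.1 ± 2.26 and 97.7 ± 2.32 CPM (log2 fold change -0.13 ± 0.05, edgeR adjusted p-value 0.13), with no overlap. SLITRK4 was at 41.7 ± 0.38 and 49.2 ± 6.62 CPM (0.24 ± 0.09, 0.148, and 0.0492 with the block). Of 14 cytoplasmic partners, which link the receptors to the actin cytoskeleton and the active zone, 5 were higher and 9 lower, with a median of -0.04. An unadjusted p-value under 0.05 was reached by 3 higher and 4 lower, and 3 higher and 2 lower passed with the block. Without Aβ42 replicate 2, 3 higher and 4 lower passed. For both lists, the shares of all genes were 23.9% unadjusted, 14.2% with the block and 23.1% without that library. PPFIBP2, a liprin-β, was at 23.0 ± 0.91 and 28.0 ± 1.86 CPM (0.28 ± 0.08, edgeR adjusted p-value 0.0856, and 0.0271 with the block). ENAH, an actin regulator, was at 282.1 ± 8.14 and 252.7 ± 6.67 CPM (-0.16 ± 0.05, 0.0919, and 0.0442 with the block).

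The R5 receptors did not pass in any fit. PTPRZ1, a receptor of radial glia that is inhibited by the growth factors PTN and MDK, was at 1958, 1993 and 2095 CPM in vehicle and at 1899, 2004 and 1827 CPM with Aβ42. Aβ42 replicate 2 lay within the vehicle range and the other Aβ42 libraries below it. The log2 fold change was -0.08 ± 0.05 (SE, edgeR adjusted p-value 0.374), and -0.11 without Aβ42 replicate 2 (0.108). With 30452 to 34356 counts per library, counting error was at most 0.573%, so the spread between libraries and not depth set the precision. PTPRG, whose carbonic anhydrase-like domain binds contactins, was at 156.4, 154.0 and 159.7 CPM in vehicle and at 156.0, 166.8 and 155.2 CPM with Aβ42. Its log2 fold change was 0.02 ± 0.05 (edgeR adjusted p-value 0.786), and on the log2(TPM + 1) scale it was -0.01, so no direction is given.

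Ligands and binding partners of PTPRZ1 and PTPRG were 7 higher and 3 lower of 10 tested, with a median of 0.06. In edgeR's quasi-likelihood test of all 6 libraries 0 had an unadjusted p-value under 0.05, beside 23.9% of all genes. Without Aβ42 replicate 2 the median was 0.10 and 4 of the 10 passed, all higher, beside 23.1% of all genes (11.5% higher). The 4 were TNR, a matrix protein (edgeR adjusted p-value 0.000606), the adhesion protein L1CAM (0.0132), and the contactins CNTN1 (0.0273) and CNTN3 (0.0348). NRCAM, a neuronal adhesion protein, was at 464.9 ± 13.7 and 431.4 ± 21.4 CPM (log2 fold change -0.11 ± 0.05, edgeR adjusted p-value 0.223). TNC, a matrix protein of the stem cell niche, was at 320.2 ± 30.4 and 355.3 ± 36.5 CPM (0.15 ± 0.09, 0.321). With the block and all libraries 1 gene of the list passed, CNTN1, which binds PTPRZ1, with a log2 fold change of 0.21 (edgeR adjusted p-value 0.0126). The block called 14.2% of all genes. The 4 genes were picked out by these counts after their values were seen.

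The R2B receptors PTPRK and PTPRM bind copies of themselves on neighbouring cells and work at cadherin junctions. PTPRK was at 92.0, 99.7 and 94.5 CPM in vehicle and at 101.3, 89.4 and 86.4 CPM with Aβ42, a spread that covered the whole vehicle range. Its log2 fold change was -0.05 ± 0.06 (SE, edgeR adjusted p-value 0.683). PTPRM was at 144.4, 133.3 and 145.2 CPM in vehicle and at 136.6, 145.7 and 141.9 CPM with Aβ42 (0.0048 ± 0.05, 0.962), and its sign turned on the log2(TPM + 1) scale (-0.04). Of 12 cadherin and catenin partners, 6 were higher and 6 lower, with a median of 0.0099 that was -0.04 on the log2(TPM + 1) scale. An unadjusted p-value under 0.05 was reached by 3 higher and 1 lower. With the block 1 passed in each direction, and without Aβ42 replicate 2, 3 higher and 1 lower. Among all genes it was 23.9% unadjusted, 14.2% with the block and 23.1% without that library. PKP4, a catenin relative, was at 64.3 ± 1.06 and 79.5 ± 10.9 CPM (0.31 ± 0.09, edgeR adjusted p-value 0.0979, and 0.0116 with the block). PARD3, a polarity protein, was at 30.6 ± 0.76 and 34.9 ± 1.95 CPM (0.19 ± 0.07, 0.135, and 0.0808 with the block).

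**Figure D4:**
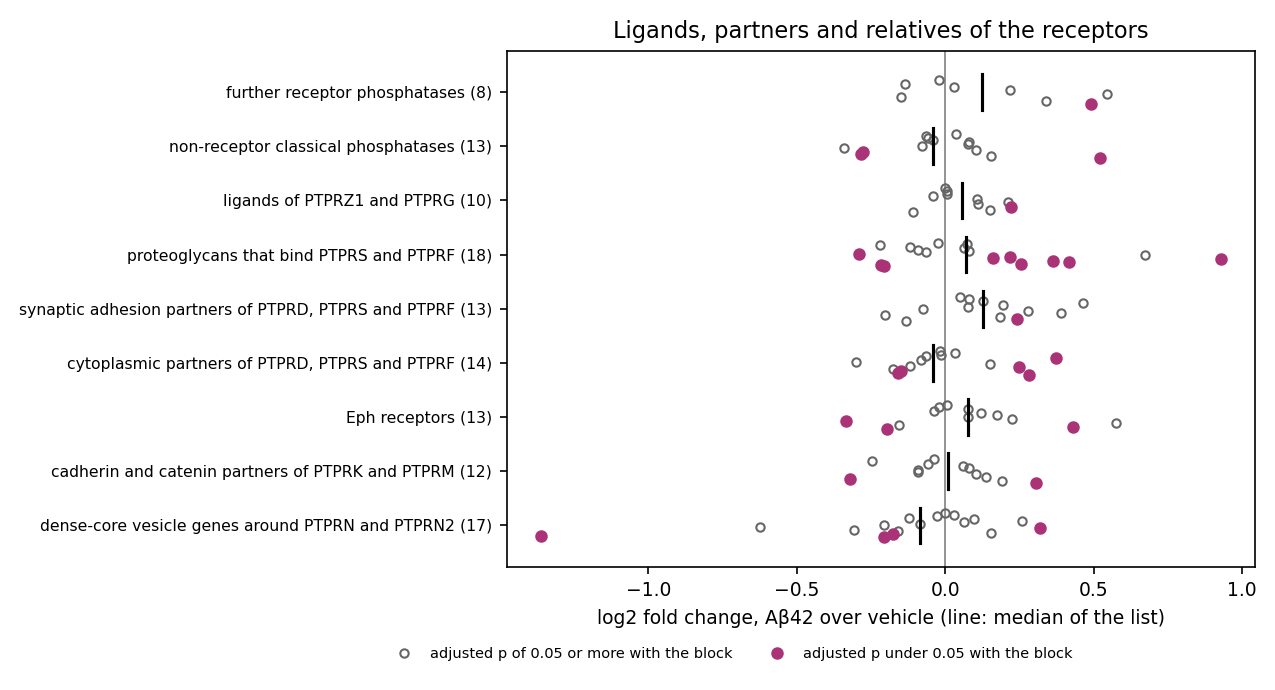
Log2 fold change of each tested gene in 9 lists of relatives, ligands and partners (number tested in brackets), with filled points for an adjusted p-value under 0.05 with the replicate block and a line at each list's median. Medians lie between -0.08 and 0.13, and every list except the ligands, the further receptors and the synaptic adhesion partners holds filled points on both sides of 0.

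Beyond the 10 members, 10 further receptors complete the human family. PTPRC, the leukocyte phosphatase CD45, had 0 to 3 counts per library and PTPRQ 0 to 2, too few to test. Of 8 tested, 5 were higher and 3 lower, 2 had an unadjusted p-value under 0.05, and 1 passed with the block. Their median was 0.12, and 0.04 without Aβ42 replicate 2, where 0 passed in the unblocked edgeR test. The shares of all genes were 23.9% unadjusted, 14.2% with the block and 23.1% without that library. PTPRU, a relative of PTPRK and PTPRM, was at 37.9, 27.0 and 28.4 CPM in vehicle and at 52.4, 37.0 and 41.7 CPM with Aβ42. Within each replicate number the Aβ42 library was higher, although Aβ42 replicate 2 lay below vehicle replicate 1. Its log2 fold change was 0.49 ± 0.17 (SE), with an edgeR adjusted p-value of 0.149, and 0.000313 with the block. That call stayed when number 1 (0.0442), 2 (0.00128) or 3 (0.00573) was left out of the blocked fit. Without Aβ42 replicate 2 and without a block it was 0.0738.

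PTPRE, which is made as a membrane and as a cytosolic form, was at 7.33, 6.45 and 6.71 CPM in vehicle and at 8.05, 8.20 and 9.66 CPM with Aβ42. The groups did not overlap, and the log2 fold change was 0.34 ± 0.13 (edgeR adjusted p-value 0.15, and 0.0932 with the block). The others were PTPRA (log2 fold change 0.03 ± 0.04), PTPRJ (-0.02 ± 0.06), PTPRT (-0.15 ± 0.10), PTPRR (0.22 ± 0.28), PTPRH (0.54 ± 0.44) and PTPRB (-0.14 ± 0.36). Their groups overlapped, and edgeR adjusted p-values were between 0.38 and 0.857. PTPRB and PTPRH had 8 to 31 counts per library, so only large differences were detectable in them. Of the sign of these 6, that of PTPRA turned on the log2(TPM + 1) scale (-0.02).

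The table also bears on which transcripts were counted, because the ratio of a gene's estimated counts to its TPM follows the transcript length used for it in that library. Each library's ratios were divided by their median over the 11235 genes that averaged 100 counts or more. PTPRO stood at 1.699, 1.702 and 1.709 in vehicle, against 1.718, 1.720 and 1.728 with Aβ42, 1.09% higher and without overlap. An exact permutation test, two-sided, gave p = 0.1, the smallest possible with 3 libraries against 3. Among all 11235 genes, 26.9% had groups that did not overlap in this ratio. In the other 9 members the groups overlapped. PTPRK varied most between libraries, from 1.283 in Aβ42 replicate 1 to 1.444 in Aβ42 replicate 2, so its TPM order between libraries differed from its CPM order.

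In PTPRE the ratio stood at 1.447, 1.441 and 1.508 in vehicle, against 1.356, 1.305 and 1.306 with Aβ42. It was below vehicle in every Aβ42 library, on average -9.74% from the vehicle mean (exact permutation p = 0.1, two-sided). A difference of at least that size, in either direction, was seen in 0.881% of the genes. The size was that of PTPRE itself, and the share was not taken among genes of like depth. PTPRE had 106 to 161 counts per library, and which of its forms were counted was not tested. PTPRJ, a relative of PTPRO, also had a lower ratio with Aβ42 without overlap, by -2.20%.

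**Figure D5:**
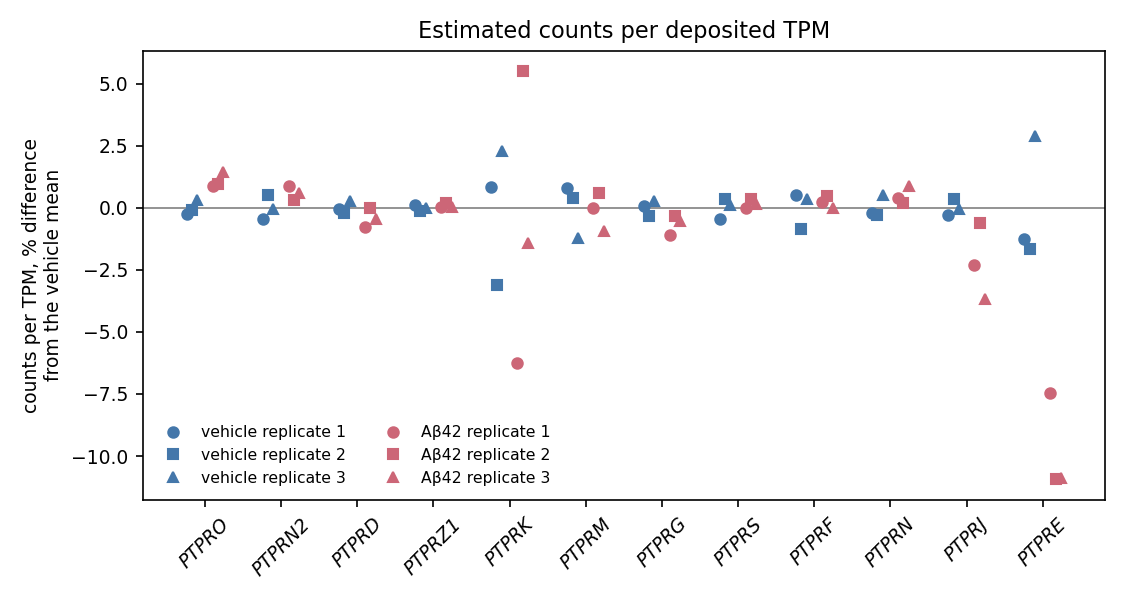
Estimated counts per TPM of each library, as the percent difference from the gene's vehicle mean, for the 10 members and for PTPRJ and PTPRE. Most genes stay near 0, PTPRK scatters in both groups, and all 3 Aβ42 points of PTPRE lie below all 3 vehicle points.

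Eph receptors, tyrosine kinases of axon guidance that are known substrates of PTPRO, were 8 higher and 5 lower of 13 tested, with a median of 0.08. That median was -0.01 without Aβ42 replicate 2 (6 higher and 7 lower), 0.05 without Aβ42 replicate 1 and 0.04 without Aβ42 replicate 3, so no direction is given for the list. In the fit of all libraries an unadjusted p-value under 0.05 was reached by 1 in each direction. With the block 1 higher and 2 lower passed, and without Aβ42 replicate 2, 2 higher and 3 lower. EPHB2 was at 162.6 ± 2.74 and 142.0 ± 10.7 CPM (log2 fold change -0.19 ± 0.06, edgeR adjusted p-value 0.0947, and 0.0268 with the block). EPHA2 was scarce, at 11.02 ± 1.14 and 14.9 ± 2.37 CPM (0.43 ± 0.13, 0.0998, and 0.0103 with the block). Of 13 classical phosphatases without a membrane span, 6 were higher and 7 lower, with a median of -0.04 (-0.02 without Aβ42 replicate 2). An unadjusted p-value under 0.05 was reached by 2 higher, 1 higher and 2 lower passed with the block, and 2 in each direction passed without Aβ42 replicate 2. Beside the Eph receptors and these phosphatases stand 23.9% of all genes unadjusted, 14.2% with the block and 23.1% without that library. PTPN3, a phosphatase that binds the cytoskeleton, was at 7.37 ± 1.32 and 10.6 ± 0.79 CPM (0.52 ± 0.14, edgeR adjusted p-value 0.0852, and 0.0143 with the block). PTPN23, of endosomal sorting, was at 61.5 ± 1.61 and 68.5 ± 5.76 CPM (0.16 ± 0.07, 0.189, and 0.12 with the block).

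The genes whose levels ran closest to those of PTPRO over the 6 libraries were found among 10288 others with a mean of at least 10 CPM, by the mean absolute difference of log2 CPM after centring each gene. They were PALM2AKAP2 (0.0317), CPEB2 (0.0361), HRAS (0.0382), GAL3ST3 (0.0384) and, from the same family, PTPRN2 (0.0399). Nearest to PTPRN2 were MAN2B2 (0.0252), LMBRD2 (0.0253) and SCG3 (0.0264). Nearest to PTPRF were NBPF9 (0.00661), SAFB (0.0128) and SNAP25 (0.0143), and nearest to PTPRN were TNIP2 (0.0177), TDRKH (0.0192) and TSPAN9 (0.0202). These distances include the difference between groups that chose PTPRO.

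Marker genes of several cell types were also lower with Aβ42, and in whole-organoid RNA fewer cells of a type and less RNA per cell cannot be told apart. The summed TPM of 12 neuronal markers was 5648 to 6007 in vehicle and 5324 to 5455 with Aβ42. Of these 12, 4 were lower and 2 higher at an unadjusted p-value under 0.05, beside 11.5% and 12.4% of all genes. The median log2 fold change of the 12 on the count scale was -0.04, and 0.0027 without Aβ42 replicate 2. For 8 markers of excitatory projection neurons the summed TPM was 1447 to 1508 and 1366 to 1441, a narrow gap. Of these 8, 6 were lower and 2, FEZF2 (log2 fold change 0.34) and SLC17A7 (0.14), higher. On the log2(TPM + 1) scale the median of all genes was itself at -0.04, which bears on every difference in summed TPM of this size. Intermediate progenitor markers, 7 of 8 lower, summed to 323.5 to 372.1 and 227.3 to 270.1 TPM. Proliferation markers, 10 of 10 lower, summed to 461.8 to 545.8 and 292.8 to 416.5 TPM. Of all genes tested, 6818 of 13842 were lower. In edgeR's test 7 progenitor and 9 proliferation markers were lower at an unadjusted p-value under 0.05, and 0 higher. After adjustment 0 passed. With the replicate block 5 and 9 passed as lower and 0 as higher. The shares of all genes that were lower were 11.5% unadjusted and 7.05% with the block. Radial glia markers, the cells in which PTPRZ1 is known to be abundant, overlapped in sum at 8354 to 8738 and 8586 to 8959 TPM. The list was split, with 7 of 13 higher and 6 lower. With the replicate block 0 higher and 3 lower passed (14.2% of all genes). Without Aβ42 replicate 2, 1 higher and 4 lower passed (23.1% of all genes). No marker of these 5 lists was at 0 in all libraries, and their part in the receptor differences was not tested.

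In summed TPM the remaining marker lists overlapped between groups or were low. Astrocyte markers summed to 268.4 to 300.1 TPM in vehicle and 249.1 to 275.0 TPM with Aβ42, and choroid plexus markers to 3348 to 7568 and 2839 to 6663 TPM. Single markers differed more than these sums. Of 8 astrocyte markers 3 were higher and 5 lower, and 1 higher and 3 lower passed with the replicate block. Of 6 choroid plexus markers tested 1 was higher and 5 lower, and 0 higher and 2 lower passed with it. The block called 14.2% of all genes. Inhibitory neuron markers summed to 9.71 to 24.3 and 20 to 28.1 TPM, mesenchymal and pericyte markers to 25.4 to 39.8 and 23.7 to 25.8 TPM, and endothelial markers to 3.83 to 7.99 and 2.53 to 4.92 TPM. Oligodendrocyte lineage markers summed to 5.47 to 6.53 and 4.66 to 5.12 TPM. Microglia and macrophage markers summed to 4.71 to 5.64 and 5.29 to 6.37 TPM. Of these 10, TREM2, TYROBP, C1QA and C1QB were at 0 in every library, and CD68, also made by other cells, was at 2.67 ± 0.20 and 2.81 ± 0.05 CPM. CSF1R had 2 to 7 counts per library, CX3CR1 1 to 4, P2RY12 0 to 4, PTPRC 0 to 3 and AIF1 0 to 1. Podocytes are the kidney cells for which PTPRO is best known. Their markers summed to 22.2 to 26.2 and 24.7 to 26.1 TPM, of which WT1 was at 0 in every library and NPHS1 at 0 to 6 counts.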

How the data were processed

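Polyadenylated RNA of 6 organoid samples was sequenced with a stranded kit, per the labels' protocols. The submitters' processing notes name FastQC, STAR 2.7.11b, featureCounts 2.0.6 and GRCh38, without roles. Per the file headers, the deposited table gives each gene a read count and, scaled for length by the authors, a TPM in every library. Only 86.9% to 87.5% of the deposited counts in a library were whole, so they were treated as estimated counts, in which reads shared between features can be divided, and were rounded. How shared reads were divided, the annotation and whether counting used strand are not given in the sources used here, so reads of overlapping or antisense genes may be included.

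Genes were kept by filterByExpr, scaled by TMM and compared with edgeR 4.0.16 (quasi-likelihood test, robust, no block) in R 4.3.3. All p-values are two-sided and adjusted by Benjamini-Hochberg over all genes tested, with a threshold of 0.05. SE was taken as the log2 fold change over the root of the F statistic. Alternatives used DESeq2 1.42.0, limma 3.58.1, other scalings and filters, log2(TPM + 1) and log2(TPM + 0.1), a replicate block and leaving out libraries. The fits were tested on simulated counts.

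The labels do not say what a replicate number marks. Deviations from group means correlated between same-numbered libraries at 0.181, 0.389 and 0.129 over 12186 genes. As each exceeded 0.1, same-numbered libraries were treated as pairs in the blocked fits, from the data alone. Correlations between libraries of unlike number are not given, so these values do not establish a pairing. All 10 members and tested further receptors were named, then the top 2 genes by p-value of each partner list, and those nearest to PTPRO and to members that passed with the block. Members and lists were chosen with earlier results of these data known. The 20 receptor symbols all matched RefSeq entries. Protein sequences were not used here.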

Additional observations from a re-analysis of the deposited data

How the results depend on the processing

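The blocked fits without a replicate number and the second scaling of counts per TPM were chosen after seeing the data. PTPRO stayed lower in all 18 alternatives, with log2 fold changes from -0.38 on the log2(TPM + 0.1) scale to -0.26 in the blocked fit without number 2. The same libraries chose PTPRO for being lower, so its kept sign is no independent support. PTPRN2 (-0.31 to -0.23), PTPRD, PTPRZ1, PTPRS, PTPRF and PTPRN also kept their sign in all 18. PTPRN2 passed in 6 of them and PTPRF and PTPRN in 2 each. Over all genes, 0 higher and 0 lower became 189 and 171 without the low-count filter. DESeq2 gave 384 and 420, and the replicate block 986 and 976. Among the 9 members other than PTPRO these 3 alternatives gave 0 and 1, 0 and 1, and 2 and 1. Leaving out 1 library gave 0 to 1607 genes higher and 0 to 1617 lower, and 0 to 2 members higher and 0 to 1 lower, where every call came from the fit that dropped Aβ42 replicate 2. The replicate block without 1 number gave 84, 1014 and 262 genes higher and 70, 1021 and 257 lower for numbers 1, 2 and 3, with 0 members higher and 0, 1 and 1 lower, from fewer samples.

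Signs turned only in receptors near 0 or with few counts. PTPRG was at -0.012 on the log2(TPM + 1) scale, -0.012 on the log2(TPM + 0.1) scale, -0.010 without Aβ42 replicate 2 (-0.010 to 0.043 over the left-out libraries) and -0.023 with the block and without number 2. PTPRK was at 0.0049 in that last fit. PTPRM was at -0.038 on both TPM scales, -0.034 without vehicle replicate 2, -0.017 without Aβ42 replicate 2 (-0.034 to 0.030) and -0.057 with the block and without number 2. PTPRA was at -0.021 on both TPM scales and -0.0077 with the block and without number 3. PTPRB was at 0.047 without vehicle replicate 1, 0.038 without Aβ42 replicate 1 (-0.30 to 0.047) and 0.22 with the block and without number 1. PTPRJ was at 0.0069 without Aβ42 replicate 3 (-0.048 to 0.0069) and 0.0023 with the block and without number 3. PTPRR was at -0.050 without vehicle replicate 3 (-0.050 to 0.49) and -0.0080 with the block and without number 3. The cause was not tested. The median of all genes moved from 0.0032 to -0.04 on both TPM scales. Of the medians of 22 lists, 362 of 396 values moved by less than the spread between libraries, and 12 lists kept their sign throughout.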
